A study of Drosophila melanogaster with 2 samples.

Results

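ChIP-seq peaks of woc (without children), a zinc finger protein, were examined at promoters of protein-coding genes that do not share their promoter region with an oppositely oriented neighbour, in whole Drosophila melanogaster larvae. A peak counted here when its summit lay within 500 bp of an annotated transcription start site on 2L, 2R, 3L, 3R, 4 or X, and when the gene of the nearest start site had no oppositely oriented protein-coding gene starting up to 1000 bp away and pointing away from it. This rule kept 1544 summits, which is 52.8% of the 2923 promoter summits and 23.3% of the 6614 optimal summits on these arms. Another 1379 promoter summits belonged to genes with such a divergent partner, and 3691 summits lay away from promoters. The 1544 summits stood at 1191 of the 8893 genes without a divergent partner (13.4%). The chromatin came from a transgenic line that stably expresses woc with GFP fused at its C-terminus (woc-eGFP), from wandering L3 larvae of pooled sex. It was sonicated and recovered with an antibody against GFP. Biological replicates 1 and 3 are 2 libraries from separate biosamples of 1 fly line and form 1 group, so no genotype, treatment or stage was compared, and whole animals mix every larval tissue. The promoter that drives the transgene is not given in the sources used here.

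woc is a chromatin protein with zinc fingers that binds together with row and the heterochromatin protein HP1c at promoters in euchromatin, and woc mutants are known for a lack of the moulting hormone ecdysone. Fly promoters of widely expressed genes often carry the DNA replication-related element (DRE), bound by the factor DREF, or Motif 1, bound by M1BP, whereas regulated genes more often carry a TATA box or repeats of GA, to which the GAGA factor binds. In the compact fly genome many genes are arranged head to head. The peaks described here are promoter peaks whose nearest start site belongs to a gene with no start site in such a pair.

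To show what lies under the strongest of these summits, 151 bases centred on the summit are printed for larp, CG18549, Hsp27 and CG14100, which are 4 of the 6 highest members. They are read on the gene's strand from the dm6 genome of RefSeq, so that the summit is base 76. Capitals mark every TATA box (TATAAA), every DRE or its core (CGATA), every E-box (CAGCTG), Motif 1 and Ohler motif 6 on either strand. The stretches lie at chr3R:28326533-28326683 (minus strand), chr3R:12449096-12449246 (plus strand), chr3L:9383830-9383980 (plus strand) and chr3L:19590553-19590703 (minus strand). None of these stretches overlaps an annotated exon.
larp: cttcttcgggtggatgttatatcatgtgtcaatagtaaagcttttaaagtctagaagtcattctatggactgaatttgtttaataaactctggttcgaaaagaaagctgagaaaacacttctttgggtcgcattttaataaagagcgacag
CG18549: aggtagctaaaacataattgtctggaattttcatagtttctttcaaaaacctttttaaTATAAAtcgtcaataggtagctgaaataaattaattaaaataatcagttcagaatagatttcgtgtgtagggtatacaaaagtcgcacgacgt
Hsp27: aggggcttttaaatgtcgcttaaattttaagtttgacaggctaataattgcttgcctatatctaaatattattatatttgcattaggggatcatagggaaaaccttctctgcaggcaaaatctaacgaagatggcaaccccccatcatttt
CG14100: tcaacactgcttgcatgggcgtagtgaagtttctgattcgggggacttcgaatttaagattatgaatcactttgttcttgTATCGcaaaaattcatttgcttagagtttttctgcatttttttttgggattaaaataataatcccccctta
The A+T content of these stretches was 64.9% at larp, 70.9% at CG18549, 64.2% at Hsp27 and 64.9% at CG14100. CG18549 held a TATAAA close to the summit, CG14100 held 1 CGATA, read from the other strand, and larp and Hsp27 held none of the marked letters.

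A smaller set of summits stood on the elements of widely expressed genes. Among the highest members with a DRE (TATCGATA) within 50 bp of the summit were l(3)73Ah, Jwa and sn, and among those with Motif 1 (GGTCACACT) were Vha68-2, a subunit of the vacuolar proton pump, and sgl, a UDP-glucose dehydrogenase. These examples were chosen after the peak values were known. Capitals mark DRE or CGATA in the first 3 and Motif 1 in the last 2, on either strand. The stretches lie at chr3L:16588173-16588323 (plus strand), chr2L:18705807-18705957 (minus strand), chrX:7969438-7969588 (plus strand), chr2L:12974097-12974247 (plus strand) and chr3L:6964760-6964910 (minus strand).
l(3)73Ah: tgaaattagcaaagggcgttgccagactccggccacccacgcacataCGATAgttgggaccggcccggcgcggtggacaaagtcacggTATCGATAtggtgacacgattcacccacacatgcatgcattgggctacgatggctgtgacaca
Jwa: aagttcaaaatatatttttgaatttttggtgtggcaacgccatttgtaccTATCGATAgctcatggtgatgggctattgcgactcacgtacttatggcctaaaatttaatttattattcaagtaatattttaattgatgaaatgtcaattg
sn: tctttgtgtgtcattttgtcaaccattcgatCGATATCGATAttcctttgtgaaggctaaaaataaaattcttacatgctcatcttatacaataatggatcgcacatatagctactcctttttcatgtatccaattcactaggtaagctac
Vha68-2: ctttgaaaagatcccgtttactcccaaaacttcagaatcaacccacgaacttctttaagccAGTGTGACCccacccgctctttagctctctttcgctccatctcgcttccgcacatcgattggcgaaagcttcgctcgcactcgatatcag
sgl: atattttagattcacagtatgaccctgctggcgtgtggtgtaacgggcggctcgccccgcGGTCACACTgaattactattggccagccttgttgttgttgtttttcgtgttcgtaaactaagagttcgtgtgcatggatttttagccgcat
The signal of these peaks was 694 at l(3)73Ah, 452 at Jwa, 351 at sn, 266 at Vha68-2 and 260 at sgl.

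Signal is the value listed by the authors for each peak. What it measures and how it was scaled between lists are not stated, so ratios between the libraries describe these lists only, and read depth is unknown. The members ran from 99.6 to 2238, with a median of 197 (95% interval 192 to 205, interquartile range 136 to 321). The median was 213 at divergent promoter summits (203 to 223) and 169 at summits away from promoters (165 to 173). Of the 100 highest peaks on the arms, 27 were members, 26 were divergent promoter peaks and 47 lay elsewhere. The −log10 q, also the authors' value, stood at its ceiling of 3.94 at 1073 members (69.5%) and was not used to rank them. Intervals here and below are exact or taken from order statistics, and they reflect only the number of peaks or genes, which share 2 libraries and are not replicates.

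The leading members were present in both libraries. At larp, which encodes a La-related RNA-binding protein, the peak at chr3R:28326303-28326911 had a signal of 2238 in the optimal list, 1673 in replicate 3 and 570 in replicate 1. It ranked 2 among the peaks on the arms in replicate 3 and 3 in replicate 1, and lay 344 bp upstream of the nearest of 6 start sites, inside an intron of larp itself. CG18549 had 1864 in the optimal list, 1346 in replicate 3 and 526 in replicate 1, with its summit 125 bp upstream of its only start site. Sox14, an ecdysone-induced transcription factor gene, had 1803, 1359 and 478 in the same order, with its summit 267 bp upstream. These genes were among the 7 highest of the arms in each library.

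Other leading members had differing ranks in the libraries. ph-p, a Polycomb group gene, had 1637 in the optimal list, 1348 in replicate 3 (rank 6) and 298 in replicate 1 (rank 67), and CG1888 had 1213, 996 (rank 25) and 205 (rank 326). Hsp27, which encodes a small heat shock protein, ranked 15 in replicate 3 and 16 in replicate 1, with signals of 1066 and 387. hid, an inducer of apoptosis, had 1311 in the optimal list, 941 in replicate 3 and 395 in replicate 1. The glycogen synthase kinase 3 gene sgg had 1184, 890 and 290, and the glycolytic gene Gapdh2 had 1131, 774 and 362. The remaining genes among the 20 highest were CG14100 (1433), CG2811 (1354), fok (1164), the mitochondrial citrate carrier gene sea (1154), SLC5A11 (1152), Prps, a nucleotide synthesis enzyme (1123), Gbs-70E, a glycogen-targeting subunit of protein phosphatase 1 (1090), the reticulon gene Rtnl1 (1042), the scavenger receptor gene pes (1021), the ecdysone-induced nuclear receptor gene Eip75B (1004) and the lipin gene Lpin (964). At the other end, jbug, CG11378, Got1, ImpE2 and GILT1 closed the list with signals of 99.9, 99.8, 99.7, 99.6 and 99.6.

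**Figure D1:**
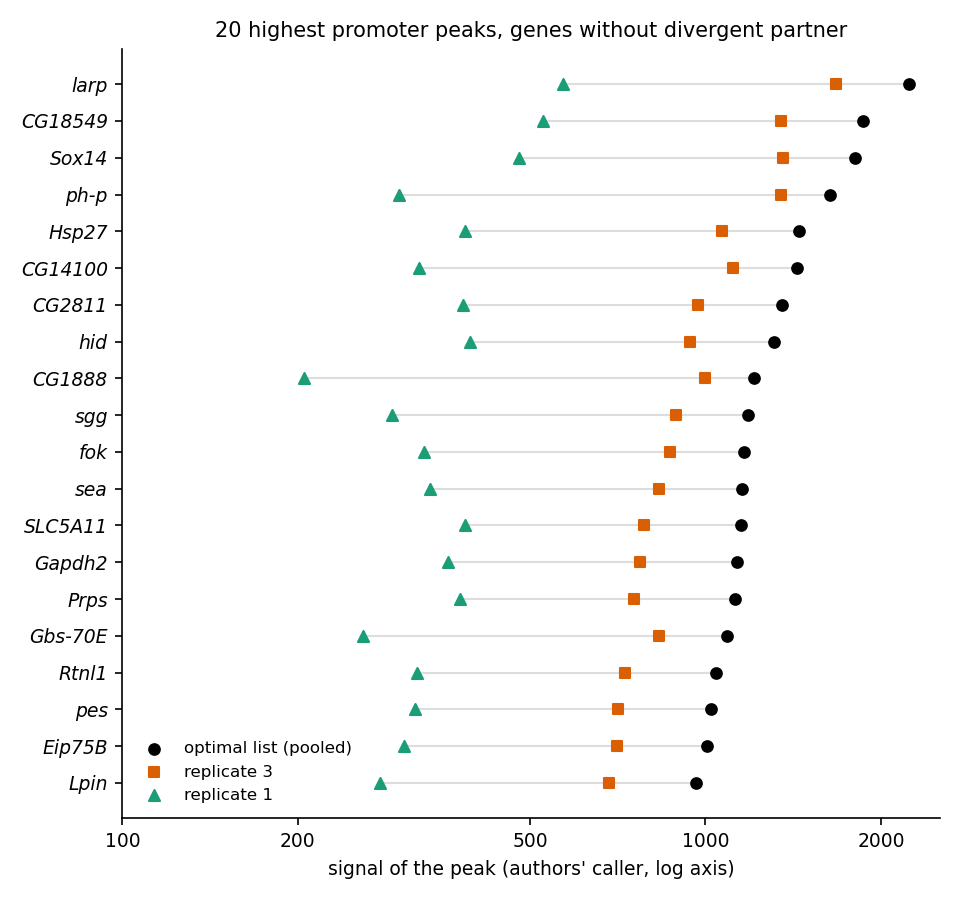
Signal of the 20 highest members (one gene per row, log axis) in the optimal list of pooled alignments, in replicate 3 and in replicate 1. In every row the replicate 3 peak has the higher signal of the libraries, and the replicate 1 signal runs from 205 at CG1888 to 570 at larp.

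Replicate 3 gave the higher signal at 1385 of the 1508 members that overlapped a peak in both libraries (91.8%). The median ratio of replicate 3 to replicate 1 was 1.84 (1.80 to 1.88, interquartile range 1.38 to 2.50), against 1.60 at divergent promoter summits (1.56 to 1.64) and 2.45 at summits away from promoters (2.41 to 2.50). Across the 1508 members, the signals of the libraries had a Spearman's rho of 0.763 and, on a log10 scale, a Pearson's r of 0.767, over peaks of 1 line that were picked from the pooled alignments of these same libraries. When each library was limited to its 6636 highest peaks, 1176 members lay inside a peak of both lists (76.2%), 180 in that of replicate 3 alone (11.7%), 178 in that of replicate 1 alone (11.5%) and 10 in neither. For divergent promoter summits the share in both lists was 77.9%, and for summits away from promoters it was 66.0%. The library-restricted lists gave a peak to 1159 genes without a divergent partner with replicate 3 (13.0%) and to 1340 with replicate 1 (15.1%).

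At a few strong members the list of replicate 1 held no overlapping peak or a low one, which does not show that this library had no reads there. Among the 200 highest, deltaCOP, a coatomer subunit gene, had 783 in the optimal list and 504 in replicate 3, and TRAM had 593 and 435, while replicate 1 had no overlapping peak at either. Glo1, which encodes glyoxalase, had 436 in replicate 3 and 15.9 in replicate 1, a ratio of 27.5. The next ratios were 6.66 at CG3638, 5.60 at l(3)L1231, 5.01 at mrt and 4.86 at CG1888. The lowest ratios among the 200 highest were 1.12 at Tpc1, 1.12 at drn, 1.28 at l(3)neo38 and 1.28 at the 2 summits of Atet, which overlap the same library peaks. In all, 30 members had no overlapping peak in replicate 1, with a median signal of 192, and 6 had none in replicate 3. The cause of these differences was not tested.

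The summits lay upstream of the start site. Of the 1544, 1328 were upstream (86.0%, exact 95% interval 84.2% to 87.7%), at a median position of −133 bp (−146 to −123, interquartile range −261 to −47). At divergent promoters 81.2% were upstream (79.1% to 83.2%), at a median of −80 bp (−86 to −75). The last 200 bp before the start site held 50.8% of the member summits and 68.4% of the divergent ones. The stretch from 201 to 500 bp upstream held 35.2% of the members (32.8% to 37.6%) and 12.8% of the divergent summits (11.1% to 14.7%). In a divergent pair a summit far upstream of one gene can be nearer to the start site of the other, which limits the position there. Positions of members can also be limited, by other start sites of the same gene or of neighbours. The part of these limits in the difference was not tested. Downstream, the first bases up to 100 held 6.22% of members and 12.7% of divergent summits, and the next up to 500 held 7.77% and 6.09%.

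**Figure D2:**
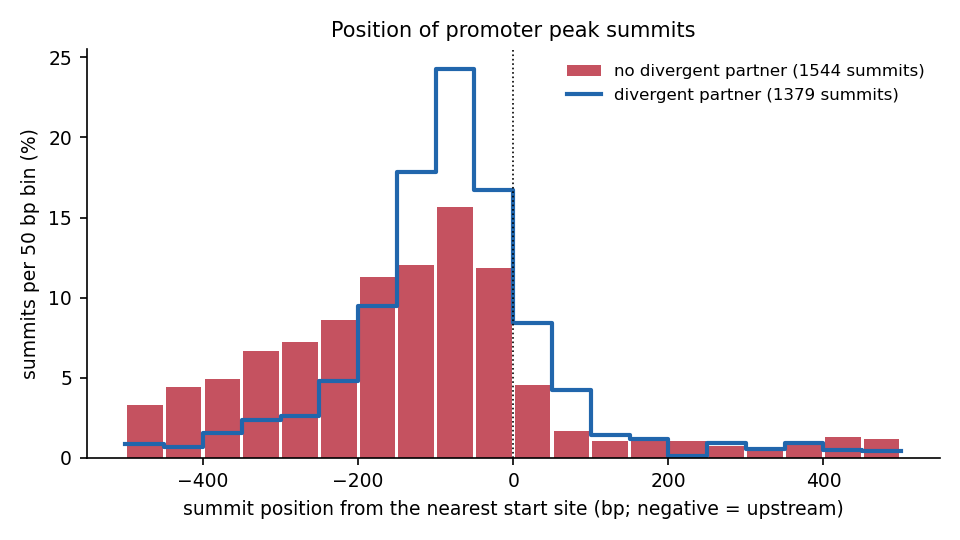
Percentage of promoter summits per 50 bp bin of distance from the nearest start site (negative values are upstream), for 1544 summits at genes without a divergent partner (bars) and 1379 at genes with one (line). The bars reach farther upstream, with 35.2% of member summits and 12.8% of divergent summits between 201 and 500 bp upstream.

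Stronger members lay upstream more often. Of the 309 members with the highest signal 92.9% were upstream (89.4% to 95.5%), and of the 309 with the lowest 79.6% (74.7% to 84.0%), while the 3 groups between them had 90.0%, 88.6% and 79.0%. Their median positions were −179, −125, −116.5, −89 and −127 bp from the highest group to the lowest, so the distance did not follow the signal at the low end. The median ratio of replicate 3 to replicate 1 was 2.26, 1.91, 1.78, 1.70 and 1.60 over the same groups. At genes with 1 start site, where no choice of site enters, 91.2% of 706 summits lay upstream (88.9% to 93.2%), at a median of −123 bp.

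Most members stood in DNA outside protein-coding genes (58.3%). Introns of the gene itself held 22.7%, its exons 13.0%, introns of another gene 3.82% and exons of another gene 2.14%. The 201 summits in exons of the gene had a median signal of 149, against 204 for the 900 outside genes and 204 for the 351 in introns of the gene. Of the 216 summits at or downstream of the start site, 153 lay in an exon of the gene (70.8%) and 63 in an intron. CG2811, with its summit 7 bp downstream, and Eip75B, with its summit 26 bp downstream, were the only such peaks among the 20 highest.

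Peaks on both sides of the limits set by the rule are given here as a description. Just inside the 500 bp window lay CG10433 at 500 bp (signal 173), Eip63F-1 at 498 bp (206), Nep2 at 498 bp (172), CG5953 at 496 bp (130) and Tob at 494 bp (116). Just outside it lay Pen at 502 bp (510), CG10337 at 502 bp (115), CG32512 at 503 bp (419), alpha-Est10 at 507 bp (156) and cic at 508 bp (211). CG11961 (238), with its partner 1007 bp away, was the nearest to the divergence limit among members, followed by Hcf (218) and PMCA (124), which are partners of each other at 1021 bp, and Ptp4E (310) and CG44774 (174) at 1023 bp. On the other side of that limit were Sarm (199) at 992 bp, CG15465 (148) and CG32767 (118) at 991 bp, and Smg5 (503) and Ance (119) at 984 bp. The member set also holds 34 summits equally near to start sites of several genes, and 2 with the start site of a divergent gene elsewhere in their window.

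Genes with a member peak were longer and had more start sites than the others. Their median length was 5124 bp (4625 to 5593), against 1889 bp for the 7702 other genes without a divergent partner (1832 to 1935), and 50.9% of them had 1 start site, against 80.3%. The share of genes with a member was 8.92% with 1 start site (606 of 6791), 21.7% with 2, 35.6% with 3 and 48.9% with 4 or more (135 of 276, exact interval 42.9% to 55.0%). A gene with more start sites has more windows in which a summit can fall. Length went with the share within genes of 1 start site too: 3.22% had a member below 1 kb, 7.16% from 1 to 2 kb, 11.0% from 2 to 5 kb, 18.4% from 5 to 10 kb and 17.4% above that.

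**Figure D3:**
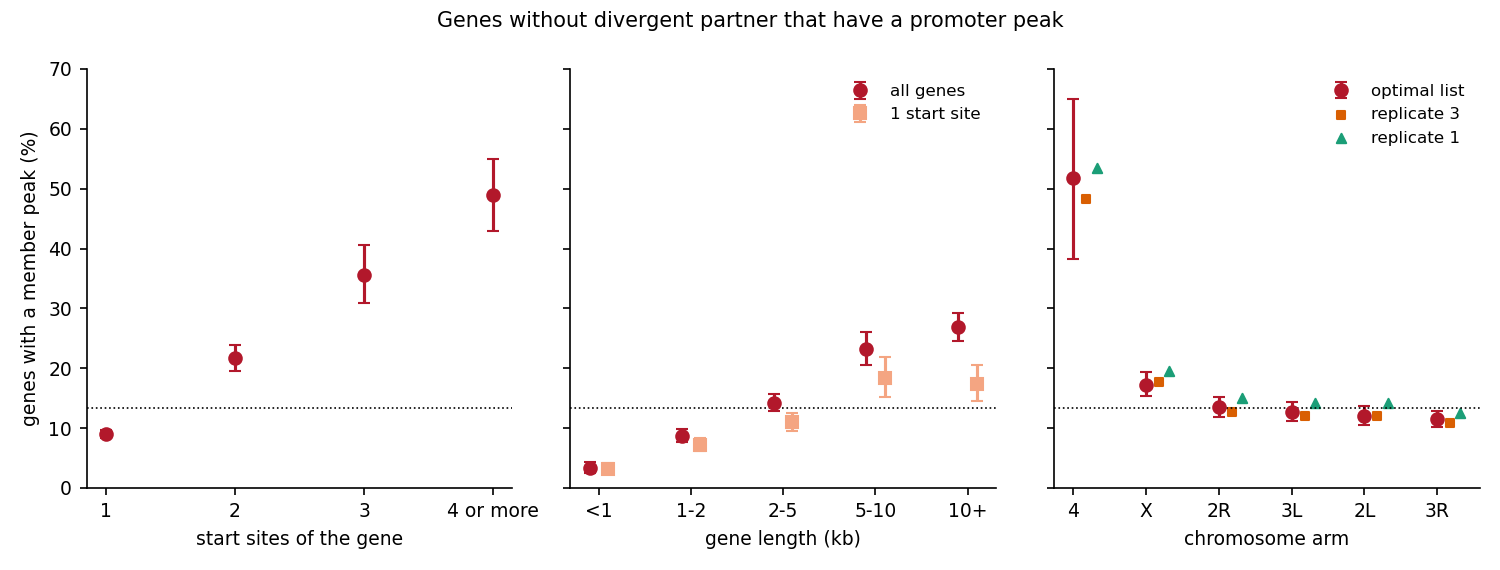
Percentage of genes without a divergent partner that have a member peak, by number of start sites, by gene length and by chromosome arm. Bars are exact 95% intervals over genes, the dotted line is the share over all 8893 genes (13.4%), pale squares are genes with 1 start site, and in the right panel squares and triangles are the lists of replicate 3 and replicate 1. The share rises from 8.92% at 1 start site to 48.9% at 4 or more, and chromosome 4 stands at 51.7%.

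At genes with several start sites the first one took about as many summits as all inner ones together. Of 838 members at such genes, 427 were nearest to the most 5′ start site (51.0%, 47.5% to 54.4%), although these sites make up 33.9% of the start sites of the same genes (31.7% to 36.2%). Since summits lie upstream, the first of several closely spaced sites is also the nearest more often, and this was not separated. Summits at inner start sites had a median signal of 199, against 193 at the first site, and lay at a median of −171 bp against −115 bp. Of the 1191 genes, 892 had 1 member summit and 299 had more, of which 108 had summits at 2 or more of their start sites. prage, Ptpmeg2 (a tyrosine phosphatase gene) and shn, a transcription factor of the Dpp pathway, had 5 each, and larp and Rtnl1 had 4. In prage they spanned chrX:1773682-1831010 with signals from 126 to 861, and in Ptpmeg2 chrX:9640823-9651258 with signals from 112 to 823.

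Occupancy differed with the surroundings of the most 5′ start site of the gene. A gene counted as occupied through a member at any of its start sites, and the groups were not matched for length or number of start sites. Where a noncoding RNA started within 1000 bp upstream and pointed away, 83 of 351 genes had a member (23.6%, 19.3% to 28.4%). Among 3685 genes with neither such an RNA, nor another gene's start site or end nearby, nor a host gene, it was 14.3% (13.2% to 15.5%). Genes with a same-strand neighbour that ends within 1000 bp upstream stood at 15.3% of 3161 (14.0% to 16.6%). The share was lower for start sites inside another gene, at 7.38% of 1761 (6.20% to 8.70%), and for genes with a same-strand start site of another gene within 1000 bp, at 9.42% of 828 (7.52% to 11.6%). Each summit went to the gene of its nearest start site, so a gene with a close neighbour can lose a summit to it. Among genes without a divergent partner, 33 had no member but had a summit within 500 bp that was assigned to another gene. The part of this rule in the lower shares was not tested.

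Member promoters carried GAGAG more often and TATAAA less often than other promoters without a divergent partner. Both strands were searched in a window reaching 150 bp upstream and 50 bp downstream of the start site, using the site nearest the highest summit for members and the most 5′ site for other genes. GAGAG was found at 428 of 1191 members (35.9%, 33.2% to 38.7%) and at 24.6% of the 7702 genes without a peak (23.6% to 25.6%), against 21.5% of genes with a divergent promoter peak and 22.6% of all 13945 promoters. TATAAA was found at 24.4% of members (22.0% to 27.0%), 33.2% of genes without a peak (32.2% to 34.3%), 31.2% of divergent promoters and 32.6% of all promoters. Over genes with 1 start site, where the same site is used for both groups, GAGAG stood at 29.2% of members and 23.2% of genes without a peak, and TATAAA at 27.1% and 35.4%. GAGAG stood at 35.4% of member promoters in the list of replicate 3 and at 36.5% in that of replicate 1. With the window extended to 250 bp upstream, GAGAG stood at 42.6% of members and 32.6% of genes without a peak. TATAAA stood at 41.2% (38.4% to 44.1%) and 44.7% (43.5% to 45.8%) there, with overlapping intervals.

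The DRE was more frequent at members than at unoccupied promoters, but less so than at divergent ones. It was found at 91 members (7.64%, 6.20% to 9.30%), 4.62% of genes without a peak (4.16% to 5.12%), 143 of the 1192 genes with a divergent promoter peak and 8.21% of all promoters. Its core CGATA, which every DRE contains, stood at 38.6%, 31.4%, 49.3% and 39.3% in the same order. Motif 1 was found at 5.29% of members (4.09% to 6.72%), 2.96% of genes without a peak, 6.96% of divergent promoters and 5.50% of all promoters. Ohler motif 7, another core promoter element of widely expressed genes, was found at 9.57% of members (7.96% to 11.4%), 3.83% of genes without a peak (3.41% to 4.28%), 19.5% of divergent promoters and 7.78% of all promoters. The E-box CAGCTG stood at 190 members (13.9% to 18.2%) and 11.6% of genes without a peak (10.9% to 12.3%).

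Members with GAGAG had higher signals and lay farther upstream, members with a DRE had lower signals and lay closer, and intervals overlapped for CAGCTG, Motif 1 and Ohler motif 7. GAGAG was found at 40.8% of the 596 member genes of higher signal and 31.1% of the 595 of lower signal, and the DRE at 5.54% and 9.75%. Members with GAGAG at the promoter had a median signal of 250 (221 to 268), against 201 for those without (192 to 214), and their summits lay at a median of −189 bp against −90 bp. Members with a DRE had a median signal of 181 (157 to 202), against 218 without (207 to 230), at a median of −72 bp against −135 bp. For CGATA the medians were 192 with it (181 to 206) and 233 without (217 to 256). The median signal was 226 with Motif 1 (181 to 257) and 214 without (203 to 223), 206 with Ohler motif 7 (175 to 254) and 215 without (204 to 225), and 218 with CAGCTG (198 to 253) and 214 without (202 to 223). Of the members with GAGAG 41.4% had 1 start site, against 56.2% of those without, and the part of the number of start sites in these differences was not tested.

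The DRE and Motif 1 were more frequent under the summits than 200 to 300 bp away, and GAGAG was not. Within 50 bp of the 1544 summits a DRE stood in 4.02%, against 0.939% of flanking stretches of the same length between 200 and 300 bp away on each side. For Motif 1 the shares were 1.62% and 0.389%, for Ohler motif 7 4.02% and 1.30%, and for CGATA 23.4% and 13.5%. GAGAG stood in 13.2% of the centres and 15.9% of the flanks. A DRE lay within 250 bp of 142 summits (9.20%), at a median distance of 60 bp (interquartile range 22 to 128). Motif 1 lay within 250 bp of 78 summits (5.05%), 27 of them within 50 bp, at a median distance of 76.5 bp. From the start site the median position was −59.5 bp for the DRE and −9 bp for Motif 1. An excess under the summit was not separated from one near the start site. These shares describe letters in a window, and no match shows that a factor bound there.

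A+T content peaked on the upstream side of the summit. It averaged 62.3% within 50 bp of member summits and 59.1% in the flanks, and 890 of the 1544 summits had the higher value in the centre (57.6%). Divergent promoter summits had 64.1% and 58.6%, and summits away from promoters 63.8% and 55.8%, where 73.8% had the higher value in the centre. Read along the gene, the members reached 65.7% between 61 and 80 bp before the summit and 61.8% in the first 20 bp after it. Their flanks differed by side, with 62.7% to 63.4% in the 20 bp bins from 201 to 300 bp before the summit. In the bins from 200 to 299 bp after it they had 54.3% to 55.5%. The centre of the members (62.3%) thus exceeded only the flank after the summit. At the promoter window itself, members averaged 56.7% A+T, against 58.7% for genes without a peak and 61.1% for divergent promoters.

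**Figure D4:**
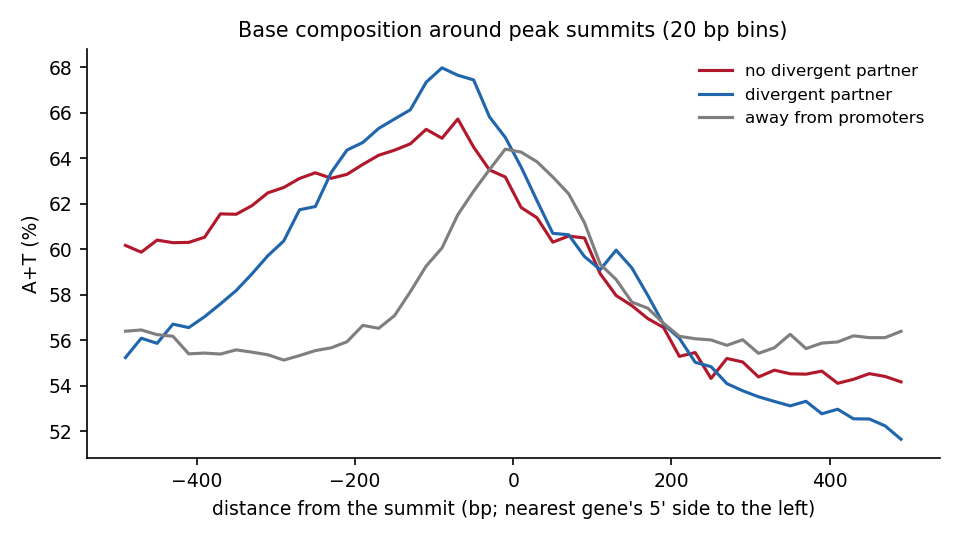
Percentage of A and T in 20 bp bins along 500 bp on each side of the summit, with the 5′ side of the nearest gene to the left, for members, divergent promoter summits and summits away from promoters. The member curve is highest between 61 and 80 bp upstream of the summit (65.7%), and the curve of summits away from promoters is highest right at it (64.4%).

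Genes were also grouped by function, counting only those without a divergent partner, and read against the 13.4% of all such genes in the optimal list, 13.0% with replicate 3 and 15.1% with replicate 1. Among 22 ecdysone response genes 12 had a member (54.5%, exact interval 32.2% to 75.6%), with 11 in the list of replicate 3 and 15 in that of replicate 1. The highest were Sox14 (1803), Eip75B (1004) and Ldh, the lactate dehydrogenase gene (683), and the receptor gene EcR itself had 210, with 131 in replicate 3 and 85.1 in replicate 1. E23 (351), Eip74EF (321), crol (306), Cth (246), Eip63F-1 (206), Blimp-1 (191), Hr78 (163) and ImpE2 (99.6) were the other genes of this list with a member. Eip63E, Eip78C, Eip93F, Hr38, Hr4, ImpE1, ImpL2, MsrA, br and ftz-f1 had none. Only 22.7% of this list had 1 start site, against 76.4% of all genes without a divergent partner, and of its 5 genes with 1 start site 3 had a member, against 8.92% of all such genes. Nuclear receptor genes had 5 members of 16 (31.3%) in the optimal list and in each library, led by Eip75B, Hnf4 (393) and EcR, and none of its 6 genes with 1 start site had one.

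Cytoplasmic ribosomal protein genes had 17 members of 33 (51.5%, 33.5% to 69.2%), with 17 in the list of replicate 3 and 19 in that of replicate 1. Their signals were moderate, with a median of 195 against 215 over the 1191 member genes, and most summits lay within 125 bp upstream. RpS3A led with 471 (271 in replicate 3 and 199 in replicate 1), followed by RpS27A (386) and RpS26 (348), and RpL10Aa had none. Of the 16 genes of this list with 1 start site 7 had a member. With the 3318 highest optimal peaks alone the share was 33.3%, where that over all genes was 8.11%. The mitochondrial ribosomal proteins had 2 of 15 (13.3%), mRpL49 (137) and mRpL19 (117), with 1 in replicate 3 and 3 in replicate 1, close to the share over all genes. Translation factors had 6 of 26 (23.1%, 8.97% to 43.6%), led by eIF6 (715), and proteasome genes 2 of 22 (9.09%), Rpn11 (347) and Rpn12 (169).

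Chromatin regulators were represented by small lists with wide intervals. Insulator and architectural protein genes had 4 members of 7 (57.1%, 18.4% to 90.1%): BEAF-32 (358), Clamp (276), mod(mdg4) (202) and pita (193), with CTCF without one. At pita replicate 1 had no overlapping peak. Polycomb group genes had 5 of 9 (55.6%, 21.2% to 86.3%), with 4 in replicate 3 and 6 in replicate 1. They were ph-p (1637), its tandem copy ph-d (314), the DNA-binding factor gene pho (320), sxc (186) and Su(z)2 (116), while Psc had none. ph-p and ph-d are near-identical neighbours, so reads between them may not have been placed with certainty. Trithorax group genes had 3 of 7 in the optimal list, with 1 in replicate 3 and 5 in replicate 1: Utx (276), kis (114) and trx (101). Of the HP1c, woc and row complex, only row and woc lack a divergent partner. The gene row had a peak of 546 (350 in replicate 3 and 205 in replicate 1), 59 bp upstream of its start site, and woc had no member.

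Signalling pathways held members among receptors, kinases and nuclear factors, in differing shares. In the Notch pathway 6 of 14 had a member (42.9%, 17.7% to 71.1%), with 5 in replicate 3 and 8 in replicate 1. They included the target genes E(spl)m3-HLH (607) and E(spl)m7-HLH (562), the corepressor gro (588), the ubiquitin ligase mib1 (451), the inhibitor numb (398) and the corepressor H (107). The insulin and TOR list had 8 of 21 (38.1%, 18.1% to 61.6%) and 7 in each library. Its values included 2238 at larp, 818 at melt, 332 at Pi3K21B, 156 at the translation inhibitor gene Thor, 144 at the receptor gene InR, 130 at the kinase gene Pdk1 and 117 at the transcription factor gene foxo. Of its 9 genes with 1 start site 1 had a member. Hippo pathway genes had 4 of 8, Mer (357), kibra (269), the cadherin gene ft (237) and CycE (174), in the optimal list and in each library. The Wingless pathway had 4 of 11, led by sgg (1184), lgs (270) and nkd (250), with 4 in replicate 3 and 6 in replicate 1. The Dpp pathway had 3 of 15, shn (299), the repressor gene brk (172) and the receptor gene tkv (121), with 2 in replicate 3 and 5 in replicate 1. The JAK/STAT pathway had 2 of 8, Stat92E (191) and Socs16D (104), and EGF receptor and Ras genes had 1 of 15, the repressor gene aop (463), with 1 in replicate 3 and 3 in replicate 1.

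RNA-binding and splicing regulator genes had 9 members of 21 (42.9%, 21.8% to 66.0%), with 9 in replicate 3 and 13 in replicate 1, and a median signal of 429. These were larp, the poly(A)-binding protein gene pAbp (905), how (696), the neuronal splicing factor gene elav (613), mbl (429), the sex determination gene Sxl (316), pum (258), Syp (250) and msi (240). Only 2 of these 21 genes had 1 start site, and 1 of them had a member. Circadian clock genes had 7 of 14 (exact interval 23% to 77%), led by the kinase gene sgg, Pdp1 (239) and the kinase subunit gene CkIIalpha (223). The others with a member were dco (192), CkIIbeta (154), the photoreceptor gene cry (148) and vri (122). Clk, Pdfr, cwo, cyc, jet, per and tim had none. Of the 5 genes of this list with 1 start site 1 had a member. Cell cycle genes had 7 of 17 (41.2%) in the optimal list, 8 in replicate 3 and 10 in replicate 1, led by the checkpoint kinase gene BubR1 (343), CycK (292) and E2f1 (258). BubR1 had 244 in replicate 3 and no overlapping peak in replicate 1. The actin and membrane cytoskeleton list had 7 of 17, led by Act5C (670), with 5 in replicate 3 and 10 in replicate 1. Heat shock genes had 5 of 18 (27.8%): Hsp27, Hsp26 (528), Hsp60A (156), Hsp23 (132) and Hsp110 (107), of which Hsp27, Hsp26 and Hsp23 stand in 1 cluster on 3L. The Hsp70 genes, none of which had a member, are near-identical copies, so reads there may not have been placed with certainty.

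Lists of tissue genes and of late functions differed in their shares. Cuticle protein genes had 1 of 109 (0.917%, up to 5.01%), Cpr72Eb (250), and chemoreceptor and odorant-binding genes had 1 of 193 (0.518%, up to 2.85%), Obp83g (394), in the optimal list and in each library. None was found among 19 trypsin-like and Jonah proteases (which allows up to 17.6%), 17 muscle genes (19.5%), 12 hemocyte genes (26.5%) or 7 gut genes (41.0%), in the optimal list or in either library, and only for the cuticle and chemoreceptor lists does the interval lie wholly below 13.4%. Of the cuticle genes 92.7% had 1 start site, and of the chemoreceptor genes 90.7%. Among those, 1 of 101 and 1 of 175 had a member, against 8.92% of all genes with 1 start site. Below 1 kb the latter share was 3.22%, and the lists were not matched for length. Fat body genes had 2 of 11 (18.2%), with 3 in replicate 3 and 1 in replicate 1, Apoltp (196) and Adh (135), neuron genes had 3 of 14 (21.4%), with 3 in replicate 3 and 2 in replicate 1, elav, futsch (344) and Syx1A (106), and Hox genes had 2 of 8, Antp (127) and Dfd (106), which replicate 1 did not hold among its highest peaks. Segmentation genes had 3 of 25 in the optimal list and in each library, ptc (282), nkd (250) and hry (223). For the other lists with members, those among genes with 1 start site were 2 of 14 for mitochondrial ribosomal proteins, 4 of 19 for translation factors, 2 of 18 for the proteasome, 2 of 14 for heat shock, 2 of 5 for insulators, 2 of 5 for the Polycomb group and 1 of 3 for the trithorax group. They were 3 of 10 for Notch, 2 of 7 for Wingless, 1 of 8 for Dpp, 0 of 9 for the EGF receptor and Ras, 3 of 7 for Hippo, 0 of 3 for JAK/STAT, 4 of 11 for the cell cycle and 3 of 7 for the cytoskeleton. For Hox genes 1 of 3 had a member, for segmentation genes 2 of 17, for the fat body 1 of 5 and for neurons 1 of 4. In the HP1c, woc and row complex it was 1 of 1. In whole larvae, binding in a small tissue and weak binding in every cell cannot be told apart, and a gene without a peak may still be bound in some cells.

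**Figure D5:**
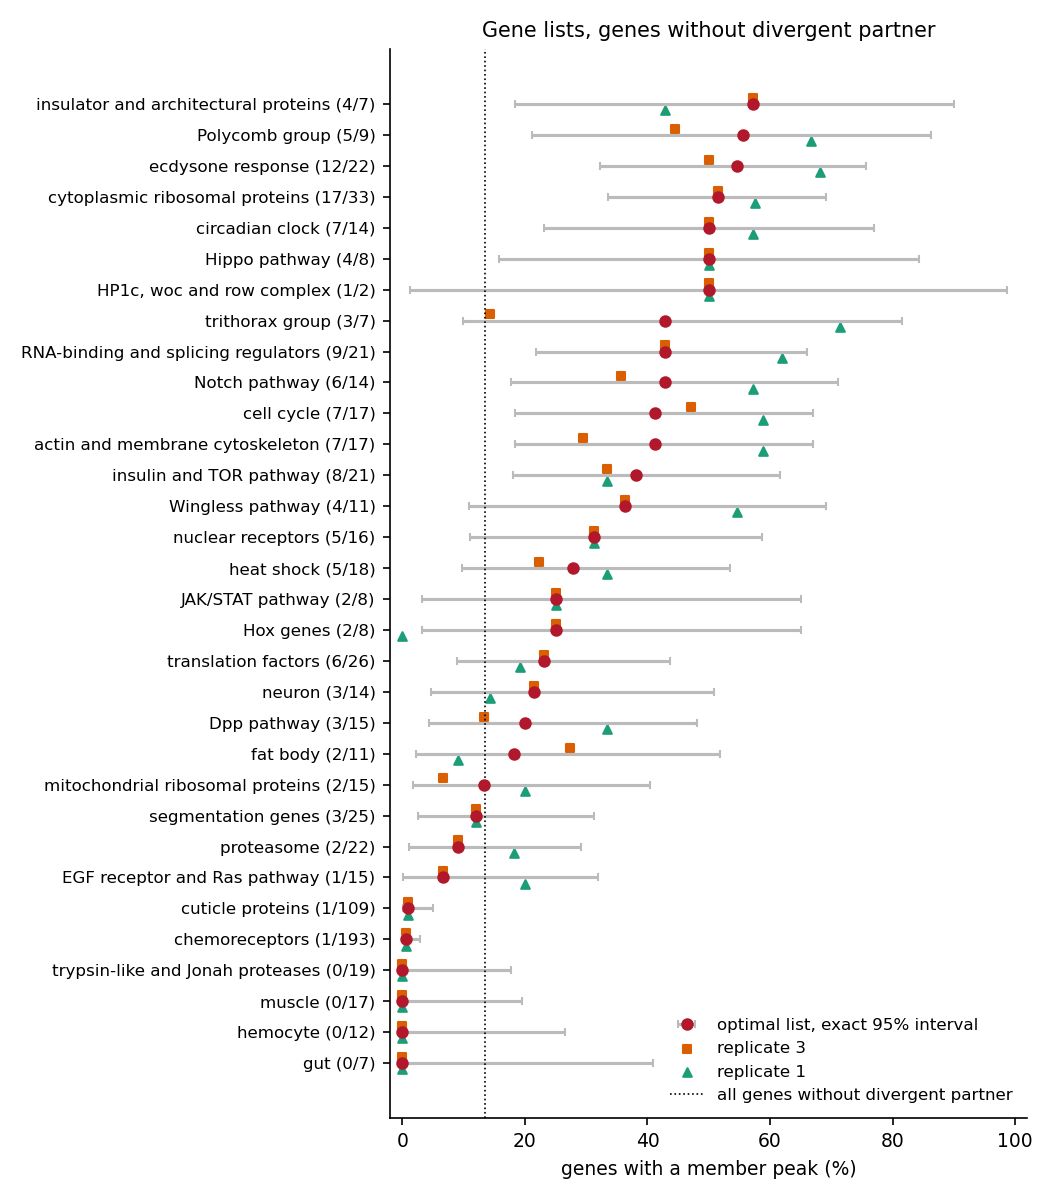
Percentage of genes without a divergent partner that have a member peak in 32 gene lists, with exact 95% intervals (circles, optimal list) and the values in the lists of replicate 3 (squares) and replicate 1 (triangles). The dotted line is 13.4%, the share over all such genes, and the intervals of the cuticle and chemoreceptor lists lie below it. Those of the ecdysone response (54.5%) and cytoplasmic ribosomal protein (51.5%) lists lie above it. So do those of the insulator, Polycomb, Notch, Hippo, insulin and TOR, cell cycle, RNA-binding, cytoskeleton and circadian lists.

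Chromosome 4, the small and largely heterochromatic autosome, had the highest share of its genes occupied. Of its 58 genes without a divergent partner, 30 had a member (51.7%, exact interval 38.2% to 65.0%), with 28 in the list of replicate 3 (48.3%) and 31 in that of replicate 1 (53.4%). The share was 17.3% on X (244 of 1413, 15.3% to 19.3%) and between 11.5% on 3R and 13.5% on 2R on the other arms. Genes of chromosome 4 without a divergent partner had a median length of 10741 bp, against 1979 to 2429 bp on the other arms. Among genes of 5 kb or more 24 of 48 had a member on chromosome 4, 31.0% on X and between 21.7% and 27.4% elsewhere. With 1 start site it was 46.9% on chromosome 4 (15 of 32), 8.82% on X and between 8.15% and 9.58% elsewhere. The comparisons by length and start sites were chosen after the shares of the arms were seen, and lengths above 5 kb were not matched. The part of length and of start sites in the share on chromosome 4 was not tested.

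The 40 summits on chromosome 4 had a median signal of 223, and the highest was 471, at RpS3A. Gyf had 429 in the optimal list, 313 in replicate 3 and 118 in replicate 1, and Crk, a signalling adaptor gene, had 413, 265 and 150. CG31998 (402), the DNA repair gene Rad23 (375), the receptor gene PlexB (356), Arl4 (346) and pho (320) were among the 11 highest genes of that chromosome. These genes were named after their values were seen. Of these summits 92.5% lay upstream, at a median of −81.5 bp, and the ratio of replicate 3 to replicate 1 had a median of 1.50, against 2.01 on X.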

How the data were processed

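ChIP-seq peak lists of 2 libraries were used. The authors deposited a relaxed list for each library and for the pooled alignments (29999 peaks each on dm6), and an optimal list of 6636 peaks after the irreproducible discovery rate (IDR) threshold, per the labels and the text deposited with each library. Of the optimal peaks, 22 lay off the 6 arms. Each list gives, as deposited by the authors, a signal and a −log10 q per peak. The sources used here do not give the peak caller, aligner, scaling or IDR threshold, so depth is unknown and signal ranks peaks within a list only. Peak lists on dm3 and control libraries were not used here.

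Summits were compared with Ensembl release 115 start sites and RefSeq dm6 sequence, whose arm lengths match, in Python 3.11.15 with numpy 2.4.6, pandas 2.3.3 and scipy 1.17.1. Coordinates are 1-based on dm6. The value of a gene is its highest member summit, and its value in a library is the highest peak there that overlaps by 1 bp or more. With 1 group and no second condition no test was made. The members, the 32 gene lists and the 14 motifs were chosen with earlier results of these data known. In the lists 16 older symbols were matched through synonyms and 8 were not found. Genes named are the 20 highest and 5 lowest members, those at the edges of the rule, the highest of each list, and the extremes of the library ratio and of summit number, with exceptions marked. The assignment of summits was tested on simulated data. Alternatives changed the window (250 and 1000 bp), the divergence distance (500 and 2000 bp), the list (3318 highest peaks, or 6636 of 1 library) and the motif window.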

Additional observations from a re-analysis of the deposited data

How the results depend on the processing

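No paired analysis was possible because the libraries form 1 group and no result comes from a test. The median position over all members stayed upstream under every alternative run for it. Values that moved beyond their 95% interval (the number of summits, by more than 1.5 times) are given below for the main results and for the motif shares that moved most, and the cause was not tested. The share of genes with a member (13.4%) was 14.9% with divergent pairs within 500 bp, 10.7% and 15.5% with windows of 250 and 1000 bp, 8.11% with the 3318 highest peaks, and 13.0% to 15.1% with 1 library left out. The share upstream (86.0%) was 80.7% within 1000 bp, 91.0% with the 3318 highest peaks, 91.2% at genes with 1 start site, and 83.3% to 85.2% with 1 library left out. The median position (−133 bp) was −91 bp within 250 bp and −153 bp with the 3318 highest peaks, which left 856 member summits. The ratio of the libraries (1.84) was 1.80 with library summits within 100 bp and 1.79 with an overlap over 50% of the peak. The Motif 1 share (5.29%) was 3.69% within 100 bp of the summit, and the DRE share (7.64%) was 6.10% with the 3318 highest peaks. Of the alternatives run for other motifs, 41 of 60 stayed within the interval. Within 100 bp of the summit GAGAG stood at 26.1%, against 35.9%, and CAGCTG at 11.7%. With 250 bp upstream, AGATAA stood at 16.1%, against 8.90%, TAATTA at 17.6%, against 9.91%, and TATAAA at 41.2%, against 24.4%. Alternatives for lists and arms were chosen after seeing the data, and 150 of 160 and 15 of 30 stayed within it. On the large arms the shares ran from 6.74% on 3R with the 3318 highest peaks to 19.5% on X with replicate 1 alone. Set against all genes under the same alternative, 23 of the 32 lists stayed on their side of that share and 9 did not. With the 3318 highest peaks, where all genes stood at 8.11%, translation factors had 7.69%, Dpp genes 6.67%, segmentation genes 3 of 25 and Hox genes 0%. With replicate 1 alone (15.1%), the mitochondrial ribosomal list had 3 of 15, proteasome genes 18.2%, EGF receptor and Ras genes 3 of 15, neuron genes 14.3%, fat body genes 9.09% and Hox genes 0%. Within 250 bp (10.7%), the mitochondrial ribosomal list had 13.3%, fat body genes 9.09%, neuron genes 7.14% and Hox genes 0%, and within 1000 bp (15.5%) EGF receptor and Ras genes had 33.3%. Cytoplasmic ribosomal proteins had 33.3% and cytoskeleton genes 17.6% with the 3318 highest peaks, and cuticle and chemoreceptor genes had none within 250 bp. The share on chromosome 4 stayed within its interval throughout. With depth unknown, the absence of a peak cannot be read as absence of woc-eGFP.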

Other observations

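Apart from the DRE and its overlapping forms, 2 words of 8 letters with at most 4 letters A or T stood among the 20 whose count within 50 bp of member summits most exceeded the flanks. These words were picked after the sequences were counted, so their counts are a description. CACTGTGC, on either strand, was found under 50 of 1544 member summits (3.24%), against a mean of 18 in the flanks (1.17%). CAACACTG was found under 36 (2.33%), against 8.5 (0.551%). Neither excess was particular to the members. CACTGTGC stood at 1.96% against 0.471% at divergent promoter summits and at 2.66% against 1.00% at summits away from promoters. For CAACACTG these values were 2.76% against 1.05% and 0.650% against 0.366%. Most of the other words were runs of A and T, led by TTTAAAAA under 105 summits (6.80%), against 52.5 in the flanks. As an example, the stretch at Top1, the topoisomerase 1 gene (chrX:15323356-15323506, plus strand, signal 714, summit at base 76), holds the first word in capitals on both strands.
Top1: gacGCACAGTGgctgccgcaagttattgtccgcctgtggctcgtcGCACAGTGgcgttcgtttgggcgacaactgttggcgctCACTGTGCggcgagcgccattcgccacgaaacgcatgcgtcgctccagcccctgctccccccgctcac
This example was chosen for its 3 copies after the stretches were seen, and no factor was assigned to either word.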
